A study of Mus musculus with 48 samples.

Results

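The 10 genes Slc2a1, Hk1, Hk2, Pfkp, Pfkfb3, Aldoa, Eno1, Pgk1, Pkm and Ldha encode a glucose transporter and enzymes of glycolysis. They were taken by name from the 18782 genes of the count table, and all 10 were among the 14431 genes that passed the filter on low counts. Their transcripts were counted in thoracic aortas from 48 C57BL/6J wild-type mice, 1 library per mouse. Males formed the groups MaCon (10 mice), MaNonAD (4) and MaAAD (7), and females the groups FeCon (10), FeNonAD (8) and FeAAD (9). Con mice drank normal water. NonAD and AAD mice drank water with 0.4% BAPN (β-aminopropionitrile) over 28 days, starting at 3 weeks of age. BAPN blocks lysyl oxidase, which builds the cross-links within collagen and within elastin. AAD mice had an aortic dissection or aneurysm at the end of treatment, and NonAD mice had received BAPN without a lesion seen under the microscope. Only mice that survived the treatment were sequenced. The authors describe the RNA source as lesioned segments of the thoracic aorta. They do not state which segments were used in mice without a lesion. The labels do not name cages, so an effect of cage cannot be told apart from that of the group.

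Glycolysis turns glucose into pyruvate in the cytosol, and lactate dehydrogenase turns pyruvate into lactate. Smooth muscle cells of the arterial wall are known to make much of their ATP this way even when oxygen is plentiful, and macrophages and dividing cells raise the pathway when they are activated. Several steps are shared by isozymes from separate genes that differ in regulation and in the tissues that use them. Slc2a1 encodes GLUT1, which lets glucose into the cell. Hk1 and Hk2 encode hexokinases that trap it as glucose 6-phosphate, Hk2 being the more inducible. Pfkp encodes the platelet-type subunit of phosphofructokinase, the enzyme of the committed step, and Pfkfb3 makes fructose 2,6-bisphosphate, its strongest activator. Aldoa, Pgk1, Eno1 and Pkm encode aldolase A, phosphoglycerate kinase, enolase and muscle-type pyruvate kinase. Ldha encodes the subunit of lactate dehydrogenase that favours lactate formation, and Ldhb, which is not among the 10, the subunit that favours the return to pyruvate.

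Many genes of this pathway are known targets of hypoxia-inducible factor and MYC, which bind short DNA elements near the start of the gene. The promoters of the 3 genes whose RNA differed between groups in the results that follow are shown for that reason, from RefSeq on build GRCm38.p6 and from 250 bases before to 50 bases after the annotated start. Each is written 5′ to 3′ on the strand of the gene, and capitals mark ACGTG or GCGTG on either strand, the core letters of the hypoxia-response element.
Pfkp, chr13:6648722-6649021, minus strand: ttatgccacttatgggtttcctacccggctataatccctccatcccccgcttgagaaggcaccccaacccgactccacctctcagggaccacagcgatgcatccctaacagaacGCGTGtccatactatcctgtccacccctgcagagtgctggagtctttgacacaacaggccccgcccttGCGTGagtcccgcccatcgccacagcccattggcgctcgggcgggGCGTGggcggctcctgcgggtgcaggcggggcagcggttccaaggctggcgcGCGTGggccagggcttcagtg
Ldha, chr7:46845554-46845853, plus strand: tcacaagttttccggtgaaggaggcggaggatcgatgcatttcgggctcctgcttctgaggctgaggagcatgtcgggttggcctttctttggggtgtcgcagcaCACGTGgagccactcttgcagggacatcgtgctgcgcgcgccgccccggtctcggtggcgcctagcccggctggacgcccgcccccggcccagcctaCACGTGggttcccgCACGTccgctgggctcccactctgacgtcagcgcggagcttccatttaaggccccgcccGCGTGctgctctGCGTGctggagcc
Pgk1, chrX:106186850-106187149, plus strand: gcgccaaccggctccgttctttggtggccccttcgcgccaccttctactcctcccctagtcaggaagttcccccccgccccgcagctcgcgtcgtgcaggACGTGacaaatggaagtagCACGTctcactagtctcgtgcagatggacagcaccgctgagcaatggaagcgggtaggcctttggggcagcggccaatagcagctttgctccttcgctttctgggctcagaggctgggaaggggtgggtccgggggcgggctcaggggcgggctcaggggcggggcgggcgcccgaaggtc
The Pfkp window held 4 matches to GCGTG and none to ACGTG. The Ldha window shown, which starts first of 2 for this gene, held 5 matches to ACGTG and 2 to GCGTG. It also held CACGTG, the E-box, at 2 places, and each of these contains ACGTG on both strands. The other Ldha window, chr7:46846832-46847131, held none of ACGTG or CACGTG and 2 matches to GCGTG. The Pgk1 window held 2 matches to ACGTG. All 10 genes were matched to 18 such windows, and 15 of the 18 held ACGTG or GCGTG, as did 43.8% of 32851 mouse promoter windows of the same length. ACGTG was in 10 of the 18 windows and in 19.6% of all windows, GCGTG in 9 and in 32.4%, and CACGTG in 2 and in 7.15%. Windows of 1 gene can overlap, and the 3 shown had a GC content of 64.7%, 67.3% and 66.7%, against a median of 52.7% over all windows. These matches describe the letters in the windows and do not show that a factor binds there.

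Library totals ranged from 13548000 to 17281273 counts, and the lowest count of any of the 10 genes in any library was 527, for Hk2. The tissue label was checked against 8 smooth muscle markers, all of which had counts in every group. Their summed level had a median of 41678 counts per 1000000 (CPM) in MaCon and 43678 in FeCon. Several libraries stood apart in other markers. FeAAD5 and MaAAD7 had the highest summed macrophage markers, at 5731 and 3806 CPM, and FeAAD5 the highest neutrophil markers, at 855 CPM. MaAAD1 had the highest brown fat and white fat markers, at 2633 and 4629 CPM, followed for brown fat by MaNonAD2 at 2287 CPM. These libraries recur among the highest values of the 10 genes, and each call that was lost or gained without one of them is given with and without it.

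The levels of the genes differed widely. Per kilobase of the longest coding transcript, and averaged over the 48 libraries, Aldoa stood highest at 590 ± 161 CPM per kb (SD), followed by Pkm at 373 ± 96.7, Eno1 at 292 ± 105 and Ldha at 226 ± 82.8. Pgk1 followed at 110.2 ± 45.3 CPM per kb. The upstream genes of the pathway were far lower, with Pfkp at 44.4 ± 14.0, Pfkfb3 at 26.9 ± 10.4, Slc2a1 at 21.4 ± 4.95, Hk1 at 21.2 ± 2.28 and Hk2 at 13.1 ± 4.04 CPM per kb. The order of neighbours held in most libraries: Aldoa exceeded Pkm in 47 of 48, Pkm exceeded Eno1 in 44, Eno1 exceeded Ldha in 45, and both Ldha over Pgk1 and Pgk1 over Pfkp in all 48. Slc2a1 and Hk1 could not be ordered, since Slc2a1 was the higher in 22 of 48. Eno1 is the least certain of these levels, because 97.9% of its deposited counts were not whole numbers. Its reads had been shared out with other genes, as happens for a near-identical copy such as Eno1b.

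**Figure D1:**
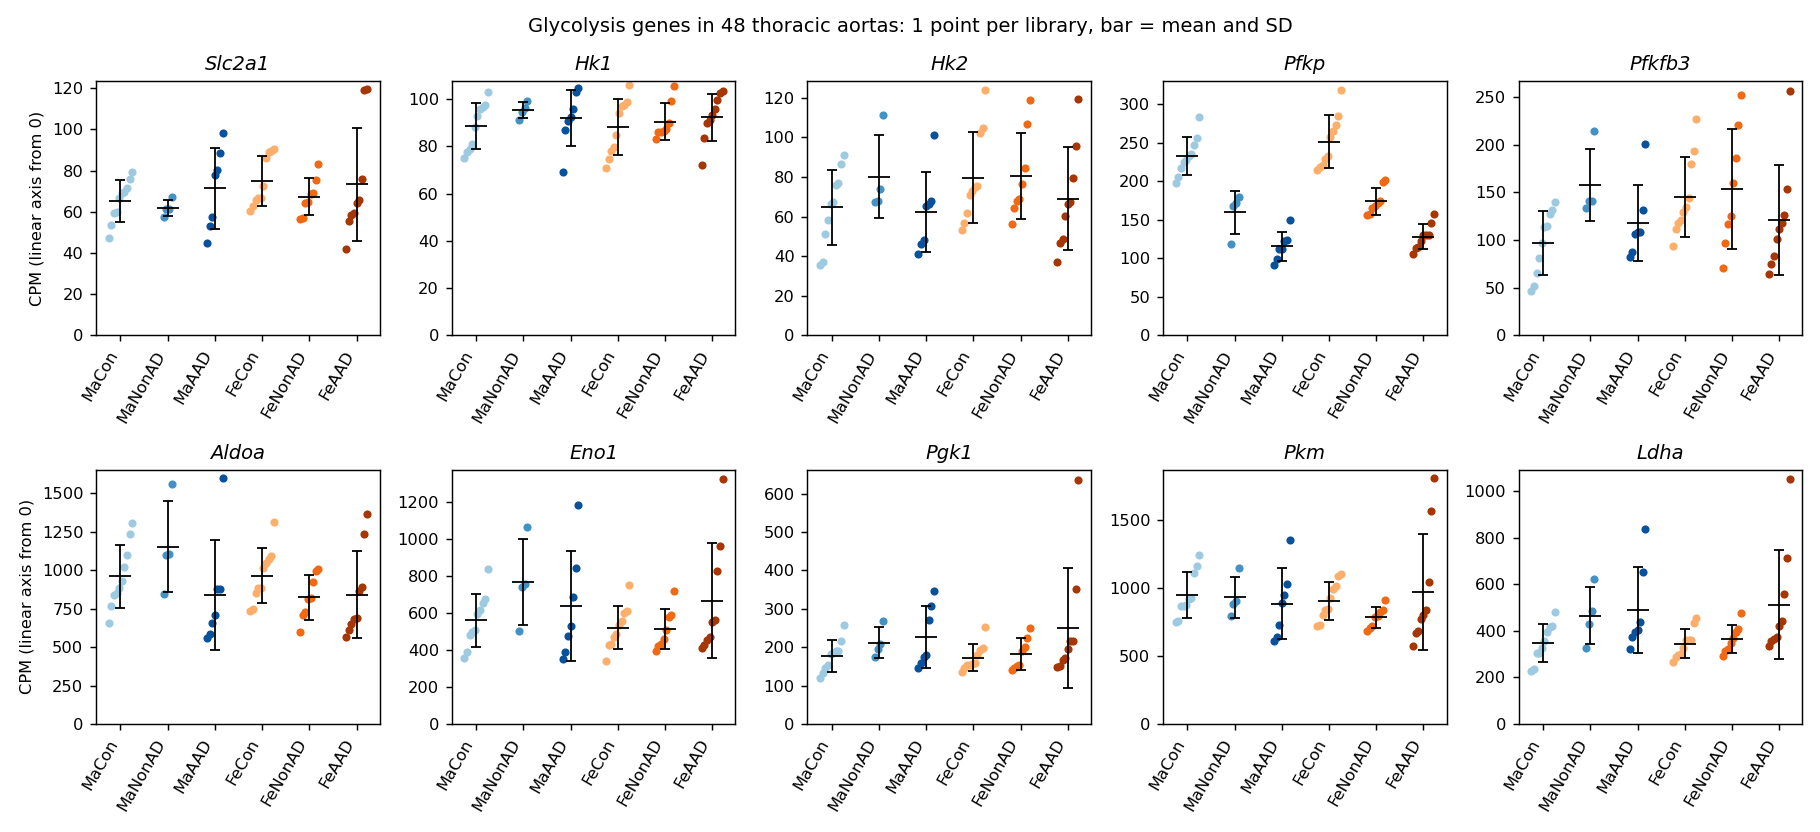
CPM of the 10 genes (vertical axes, linear and starting at 0) in the 6 groups, with 1 point per library and bars for the mean and SD. Pfkp is highest in Con and lowest in AAD among males and among females, while the other genes overlap between groups and FeAAD5 stands at the top of FeAAD for Eno1, Pgk1, Pkm and Ldha.

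Pfkp was the gene that separated the groups. In males it lay between 197 and 283 CPM in MaCon, with a median of 230.2 CPM. The 4 MaNonAD mice had 119, 168, 172 and 179 CPM, and the 7 MaAAD mice ranged from 90.7 to 149 CPM with a median of 112 CPM. Every MaNonAD and every MaAAD library was thus below every MaCon library, whereas MaNonAD and MaAAD overlapped through the 119 CPM of MaNonAD1. In females the same steps were seen, with 214 to 318 CPM in FeCon (median 245), 156 to 202 CPM in FeNonAD (median 169.6) and 106 to 158 CPM in FeAAD (median 129.6). No FeNonAD or FeAAD library reached the FeCon range, and FeNonAD and FeAAD overlapped only between 156 and 158 CPM.

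The fitted log2 fold change of Pfkp was −0.55 ± 0.12 (SE) in MaNonAD against MaCon and −0.53 ± 0.09 in FeNonAD against FeCon, with edgeR adjusted p of 0.0133 and 0.000142. From Con to AAD it was −1.01 ± 0.10 in males and −0.98 ± 0.09 in females, with adjusted p of 6.61e-10 and 1.57e-10, so that Pfkp RNA fell by 50.4% and by 49.2%. FeAAD against FeNonAD gave −0.45 ± 0.09 (adjusted p = 0.000631). MaAAD against MaNonAD gave −0.47 ± 0.12 with an adjusted p of 0.0502, just above the threshold of 0.05. The male difference passed with DESeq2 (log2 fold change −0.46, adjusted p = 0.00967), with DESeq2's size factors in edgeR (adjusted p = 0.0486) and without robust estimation (adjusted p = 0.0498), and it did not pass without the filter on low counts (adjusted p = 0.0645) or with the compared groups only (adjusted p = 0.135). Leaving out 1 library gave adjusted p from 0.0151 to 0.288. Without MaNonAD1, the fall in MaNonAD was −0.43 and no longer passed (adjusted p = 0.306), while leaving out other libraries kept it under the threshold.

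The responses of Pfkp in the 2 sexes were close. The male minus female difference was −0.02 for the NonAD response, with an approximate 95% interval of −0.30 to 0.27, and −0.04 for the AAD response, with an interval of −0.29 to 0.22. Neither interaction passed, with adjusted p of 0.985 and 0.930. A sex difference in either response of the size of the response itself was outside these intervals. Groups whose ranges did not overlap, with the lower values in the BAPN group, were found for 0.644% of all genes in MaNonAD against MaCon and 2.77% in MaAAD against MaCon. The shares were 0.374% in FeNonAD against FeCon and 1.25% in FeAAD against FeCon.

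Smooth muscle markers moved with Pfkp. All 8 of them (Myh11, Acta2, Cnn1, Tagln, Smtn, Lmod1, Myocd and Actg2) fell in AAD against Con in both sexes, with a median log2 fold change of −1.04 in males and −0.96 in females. Their summed level ranged from 28001 to 60621 CPM in MaCon, 21007 to 38067 in MaNonAD, 11902 to 29639 in MaAAD, 30727 to 52622 in FeCon, 25859 to 44939 in FeNonAD and 14074 to 32049.8 in FeAAD. In the NonAD comparisons 0 of the 8 markers passed in males, although 3 had an unadjusted p under 0.05, and 2 of 8 (Lmod1 and Actg2) fell in females. Of the B cell markers, 3 of 4 tested rose in MaNonAD against MaCon, where 0 of 8 macrophage markers passed in edgeR and 5 had an unadjusted p under 0.05. Across the 48 libraries, after the mean of each group was subtracted from log2(CPM + 1), Pfkp and the summed markers had a Pearson r of 0.80 and a Spearman rho of 0.78, and r was 0.77 without MaAAD1 and FeAAD5. Pfkp also had r of −0.44 with the macrophage sum, −0.42 with the white fat sum and 0.27 with the endothelial sum. Hk1, which passed in no comparison, had r of 0.65 with the smooth muscle sum, and 0.55 without the same libraries. These correlations were added after the data were seen and describe libraries that share the tissue. The part of smooth muscle content in the fall of Pfkp was not tested, and in bulk tissue fewer cells of a type and less RNA per cell cannot be told apart.

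The genes whose within-group pattern was most like that of Pfkp, among 13710 genes averaging at least 10 counts, were Asb2 (r = 0.87, rho = 0.87), Rasl12 (r = 0.83, rho = 0.94) and Mcam (r = 0.83, rho = 0.84). None of the other 9 genes was close to it, with r from −0.38 for Pgk1 to 0.48 for Hk1.

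Of all 10 genes, only Pfkp passed in MaNonAD against MaCon, where it was lower, as were 0.18% of all genes, and 0.624% of all genes passed in either direction. DESeq2 gave the same count of 1. The remaining 9 included Pfkfb3, which had the largest log2 fold change of the 10, at 0.70 ± 0.29 (adjusted p = 0.283). Its 4 MaNonAD values were 134, 141, 142 and 214.5 CPM, within or above the upper part of the MaCon range of 46.9 to 140.1 CPM. In FeNonAD against FeCon, 1 gene of the 10 was lower (Pfkp), and 7.66% of all genes were lower and 14.5% passed in either direction. The median log2 fold change of the 10 genes was 0.26 in the male and −0.00 in the female NonAD comparison, beside medians of −0.02 and 0.00 over all genes. The male value rests on 4 MaNonAD mice, of which MaNonAD2 was the highest for 8 of the 10 genes.

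**Figure D2:**
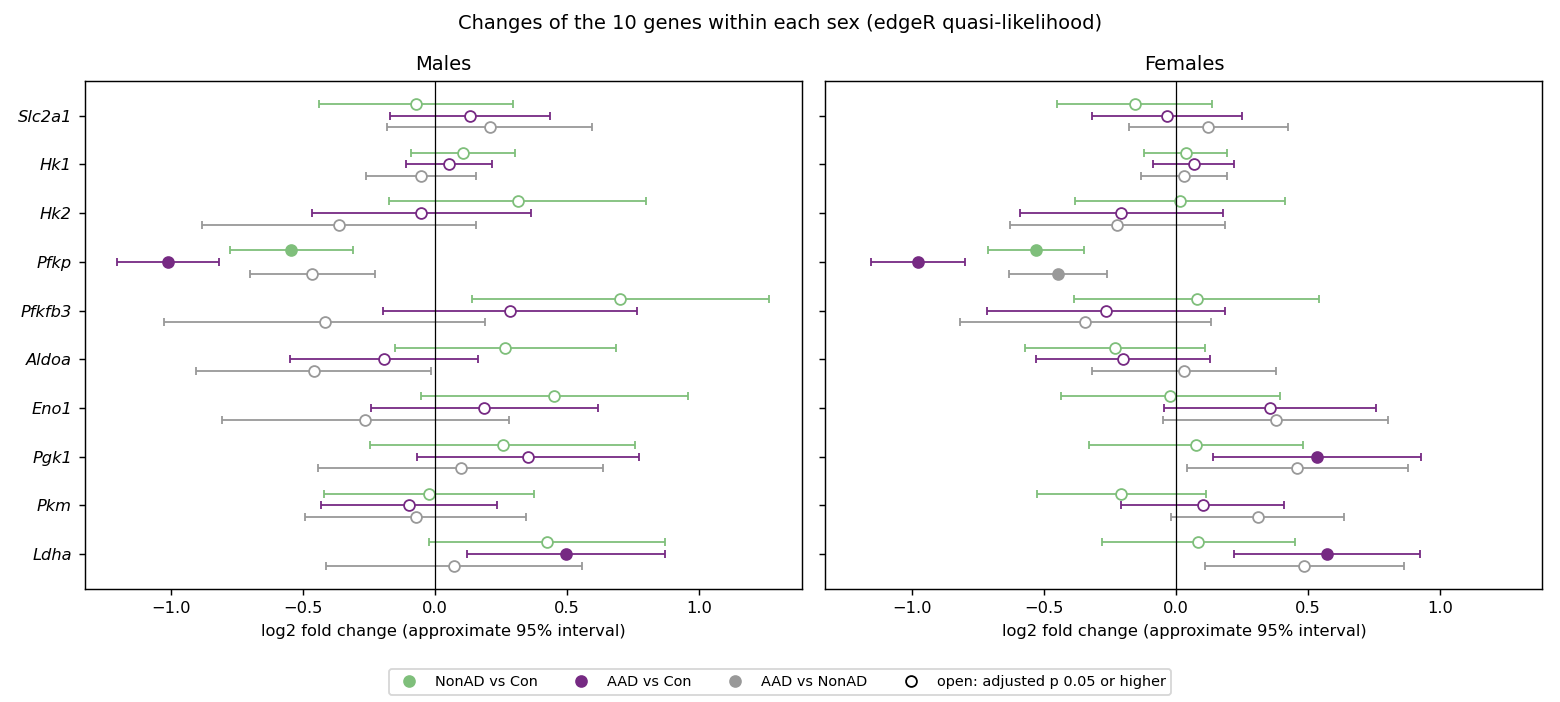
Log2 fold changes of the 10 genes (horizontal axes) within males and females for NonAD against Con, AAD against Con and AAD against NonAD, with approximate 95% intervals and filled points for adjusted p under 0.05. Filled points are those of Pfkp in 5 of the 6 comparisons, of Ldha in AAD against Con in both sexes, and of Pgk1 in FeAAD against FeCon.

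In the AAD groups Ldha passed beside Pfkp when set against Con. In MaAAD against MaCon 1 of the 10 genes was higher (Ldha) and 1 lower (Pfkp), beside 18.9% of all genes higher, 16.1% lower and 35.0% called in either direction. In FeAAD against FeCon 2 were higher (Ldha and Pgk1) and 1 lower (Pfkp), beside 23.8% higher, 20.6% lower and 44.4% in either direction. Both shares of the 10 genes called, 2 and 3 of 10, were below those of all genes. The study's DEGs also had to change by 1 or more on the log2 scale. Pfkp in MaAAD against MaCon was the only one of the 10 to do so in the 5 comparisons with calls, where the share of all genes meeting this rule was 11.4%. That share was 0.478% in MaNonAD against MaCon, 2.75% in FeNonAD against FeCon, 12.7% in FeAAD against FeCon and 7.04% in FeAAD against FeNonAD. The median log2 fold change of the 10 genes was 0.09 in males and 0.02 in females, beside −0.03 and 0.00 over all genes.

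Ldha ranged from 229 to 483 CPM in MaCon (median 339) and from 322 to 835 CPM in MaAAD (median 402). The ranges overlapped, and the highest MaAAD values were 835 CPM in MaAAD1 and 653 CPM in MaAAD7. Its log2 fold change was 0.50 ± 0.19 (adjusted p = 0.0398). Leaving out MaAAD1 gave 0.33 (adjusted p = 0.170), and leaving out MaAAD7 gave 0.41 (adjusted p = 0.116). Removing any 1 of MaCon1, MaCon3, MaCon7, MaCon8 or MaCon9 also ended the call, with log2 fold changes of 0.475 to 0.486 and adjusted p of 0.0533 to 0.0598. Over all libraries left out singly the adjusted p ran from 0.0162 to 0.170. In females Ldha ranged from 265 to 455 CPM in FeCon (median 343), from 292 to 477 CPM in FeNonAD (median 358) and from 333 to 1049.6 CPM in FeAAD (median 419). FeAAD against FeCon gave 0.57 ± 0.18 (adjusted p = 0.00870), and without FeAAD5, the library at 1049.6 CPM, 0.37 (adjusted p = 0.0672), which was the highest adjusted p of the libraries left out singly. FeAAD against FeNonAD gave 0.49 ± 0.19 and did not pass (adjusted p = 0.0694). Without FeAAD5 that value was 0.28 (adjusted p = 0.337). MaAAD against MaNonAD gave 0.07 ± 0.25 (adjusted p = 0.907). In MaNonAD against MaCon the value was 0.42 ± 0.23 (adjusted p = 0.469), with MaNonAD libraries at 328, 428, 485 and 620.1 CPM.

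Pgk1 had a median of 158 CPM in FeCon (136 to 253), 172 CPM in FeNonAD (142 to 251) and 196 CPM in FeAAD (149 to 635). The highest FeAAD values, 635 CPM in FeAAD5 and 351 CPM in FeAAD9, were the only 2 of that group above the FeCon range. The log2 fold change in FeAAD against FeCon was 0.54 ± 0.20 (adjusted p = 0.0272). It was 0.23 without FeAAD5 (adjusted p = 0.286) and 0.46 without FeAAD9 (adjusted p = 0.0658), and it did not pass when only the 2 groups entered the fit (adjusted p = 0.0703). In males MaCon ranged from 120.0 to 257 CPM and MaAAD from 146 to 345 CPM, and the log2 fold change of 0.35 ± 0.21 did not pass (adjusted p = 0.203). It was 0.22 without MaAAD7.

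Some of the libraries on which these 2 results leaned, FeAAD5 and MaAAD7, had the highest macrophage and neutrophil markers of their groups, and others, MaAAD1 and FeAAD9, had macrophage markers below the group median. All 8 macrophage markers rose in AAD against Con in both sexes. Their sum ranged from 225 to 580.1 CPM in MaCon, 849 to 3806 CPM in MaAAD, 268 to 642 CPM in FeCon and 642 to 5731 CPM in FeAAD. All 6 cell cycle markers rose as well, and 4 of 5 tested neutrophil markers rose in MaAAD and 5 of 5 in FeAAD. After group means were subtracted, Ldha and the macrophage sum had r = 0.47 and rho = 0.30 over the 48 libraries, and r = 0.21 without FeAAD5 and MaAAD7. For Pgk1 the values were 0.48, 0.25 and 0.13. With the neutrophil sum, r was 0.49 for Ldha and 0.57 for Pgk1, and 0.21 and 0.23 without the same libraries. Some genes that passed in no comparison reached similar values. For Pkm and Slc2a1 r was 0.61 and 0.58, and 0.36 and 0.40 without these libraries. It was 0.36 for Eno1, 0.12 for Aldoa and negative for Hk1, Hk2 and Pfkfb3. With the summed endothelial markers, r was −0.57 for Ldha and −0.58 for Pgk1, and −0.42 and −0.40 without FeAAD9 and FeAAD5. Here r was −0.62 for Pkm, −0.52 for Eno1, −0.49 for Slc2a1, −0.33 for Aldoa and positive for Hk1, Hk2 and Pfkfb3. Such correlations were therefore not limited to the genes that passed. With the summed white fat markers, r was 0.46 for Ldha and 0.31 for Pgk1, and 0.49 and 0.38 without MaAAD1 and FeAAD9. With the summed smooth muscle markers, r was −0.33 for Ldha and −0.44 for Pgk1, and −0.10 and −0.30 without MaAAD1 and FeAAD5. With the summed fibroblast markers, r was −0.24 for Ldha and −0.43 for Pgk1, and −0.23 and −0.39 without FeNonAD8 and FeAAD7. MaAAD1, which carried the highest Ldha value in males, had 1427 CPM of macrophage markers (group median 1701), 9.10 CPM of neutrophil markers (group median 21.1) and the highest fat markers. FeAAD9 had 911 CPM of macrophage markers (group median 1169) and 186 CPM of neutrophil markers, second to FeAAD5. The part of these cell types in the results was not tested.

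From NonAD to AAD, 1 of the 10 genes passed in females (Pfkp, lower), beside 5.0% of all genes lower and 18.2% in either direction. In males 0 of 10 passed in edgeR, where 0.409% of all genes did. At an unadjusted p under 0.05 there were 2 (Pfkp and Aldoa), and DESeq2 called 1 (Pfkp). Aldoa, at a log2 fold change of −0.46 ± 0.23 in males (adjusted p = 0.261), depended on MaAAD1, the library with the highest Aldoa value at 1596 CPM. Without it the change was −0.71 and passed (adjusted p = 0.0264).

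The other genes of the 10 did not pass in any comparison. Slc2a1 had group means between 61.9 and 75.0 CPM, and its intervals in AAD against Con ran from −0.17 to 0.44 in males and from −0.32 to 0.25 in females. Hk1 was the steadiest, with group means between 88.2 and 95.3 CPM. Its AAD against Con intervals, −0.11 to 0.22 in males and −0.09 to 0.22 in females, were the narrowest of the 10 genes. Hk2 had means of 62.3 to 80.4 CPM and Pfkfb3 of 97.0 to 158 CPM, with wide spreads within groups. Aldoa had means of 823 to 1153 CPM, Eno1 of 513 to 766 CPM and Pkm of 785 to 973 CPM. In AAD against Con, the log2 fold changes of Eno1 were 0.19 ± 0.22 in males and 0.35 ± 0.21 in females (adjusted p of 0.539 and 0.159), and those of Aldoa were −0.19 ± 0.18 and −0.20 ± 0.17 (adjusted p of 0.424 and 0.352). Without MaAAD1 the male values were −0.02 for Eno1 and −0.41 for Aldoa (adjusted p = 0.0511), and without FeAAD5 the female value of Eno1 was 0.165. These 3 did not pass.

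No difference between the sexes passed for any of the 10 genes. In edgeR 0 of 10 passed in MaCon against FeCon (1 at an unadjusted p under 0.05), while 14.3% of all genes did. The count was 0 in MaNonAD against FeNonAD (2 unadjusted) and 0 in MaAAD against FeAAD (0 unadjusted), where 0.0624% and 0.0901% of all genes passed. The male minus female differences of the BAPN responses gave 0 too, with 0 at an unadjusted p under 0.05, beside 0.416% of all genes for NonAD against Con, 1.34% for AAD against Con and 0.0% for AAD against NonAD. DESeq2 gave 0 in all 6. The gene nearest to the threshold was Pfkfb3, lower in MaCon (46.9 to 140.1 CPM, median 105) than in FeCon (94.0 to 227 CPM, median 133), at −0.59 ± 0.22 with an adjusted p of 0.0702. It passed without MaCon2 (−0.66, adjusted p = 0.0487), without FeCon3 (−0.64, adjusted p = 0.0428) and without FeAAD4 (−0.59, adjusted p = 0.04995), a library that enters only through the shared estimate of spread.

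The ratio of isozymes within a library does not depend on its size. Mean log2 ratios were compared between groups by exact permutation, two-sided, with p adjusted over 3 ratios and 9 comparisons. Ldha counts were 1.43 to 2.19 times those of Ldhb in MaCon (median 1.84), 2.11 to 3.17 times in MaNonAD (median 2.42) and 2.71 to 9.56 times in MaAAD (median 4.70). In females they were 1.72 to 2.46 times in FeCon (median 2.02), 1.70 to 4.404 times in FeNonAD (median 2.23) and 2.05 to 15.3 times in FeAAD (median 3.84). All MaAAD libraries lay above all MaCon libraries, and 8 of the 9 FeAAD libraries exceeded the highest of the 10 FeCon libraries, which was at a log2 ratio of 1.301.

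The mean log2 ratio of Ldha to Ldhb was higher in MaAAD than in MaCon by 1.41 (adjusted exact p = 0.000438, the raw p of 5.14e-05 being the smallest possible) and in FeAAD than in FeCon by 1.18 (adjusted exact p = 0.000438). MaNonAD exceeded MaCon by 0.47 (adjusted exact p = 0.00771), while FeNonAD exceeded FeCon by 0.19 and did not pass (adjusted exact p = 0.420). Without FeNonAD8 that difference was 0.05. MaAAD exceeded MaNonAD by 0.94 (adjusted exact p = 0.0409), and FeAAD exceeded FeNonAD by 1.00 (adjusted exact p = 0.0315). Without MaNonAD1 the MaNonAD difference was 0.36 and did not pass (adjusted exact p = 0.0629). The male AAD against NonAD difference did not pass without any 1 of MaNonAD2, MaNonAD3, MaNonAD4, MaAAD2, MaAAD3, MaAAD4, MaAAD5 or MaAAD6, with differences of 0.861 to 0.986. The female difference did not pass without any 1 of FeNonAD1, FeNonAD3, FeNonAD5 or FeNonAD6, with 0.937 to 0.990. Both members of the ratio moved, since Ldhb itself fell in AAD against Con, by 0.785 ± 0.27 on the log2 scale in males (adjusted p = 0.0202) and by 0.60 ± 0.25 in females (adjusted p = 0.0466). Ldhb was highest in MaAAD1 among MaAAD, at 308 CPM, the library with the highest fat markers, and the ratio of that library was the lowest of its group. The highest log2 ratios were 3.93 in FeAAD5, 3.30 in FeAAD9, 3.26 in MaAAD7 and, within FeNonAD, 2.14 in FeNonAD8. FeAAD5, MaAAD7 and FeNonAD8 had the highest macrophage and neutrophil sums of their groups (971 and 7.26 CPM in FeNonAD8), and FeAAD9 the second highest neutrophil sum. The part of these cell types in the ratio was not tested.

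**Figure D3:**
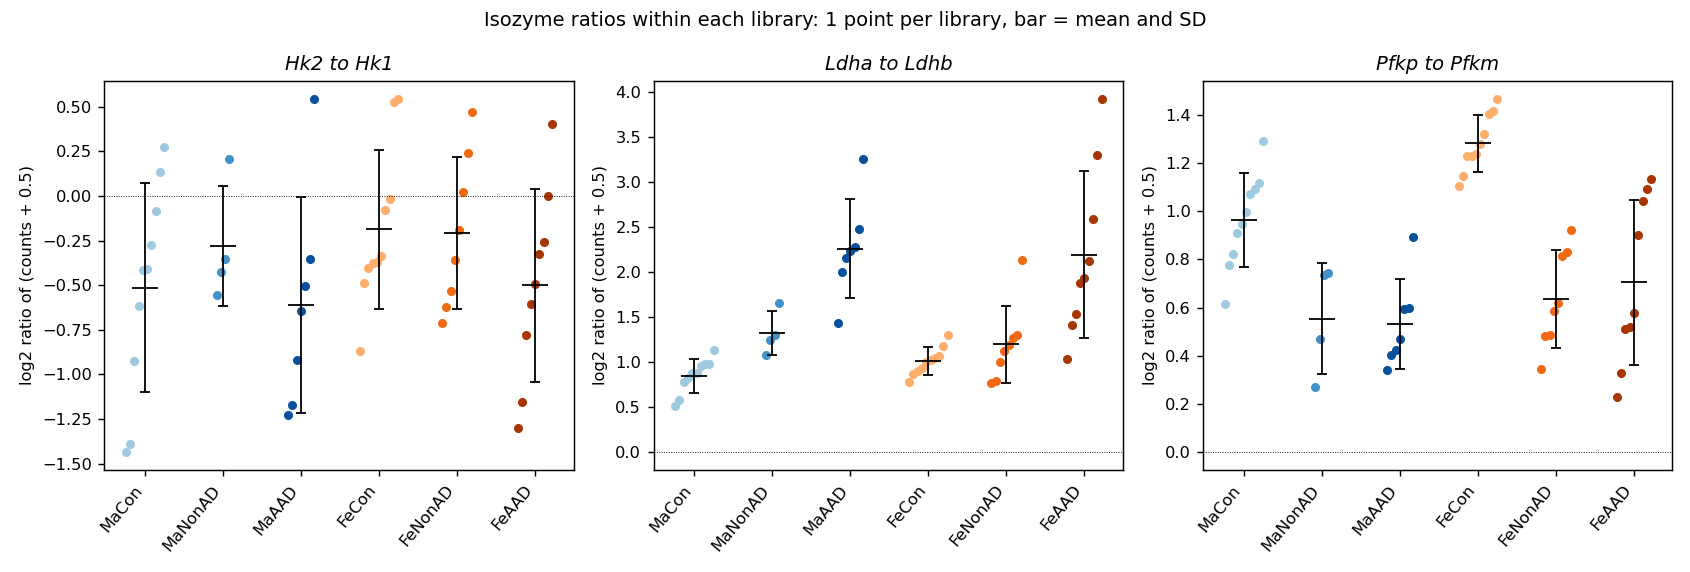
Log2 ratios of Hk2 to Hk1, Ldha to Ldhb and Pfkp to Pfkm (vertical axes) in each library by group, from counts with 0.5 added, with bars for the mean and SD. Ldha to Ldhb is highest in MaAAD and FeAAD, Pfkp to Pfkm is highest in the 2 Con groups with FeCon above MaCon, and Hk2 to Hk1 overlaps across all groups.

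Phosphofructokinase showed another pattern. Pfkp counts were 1.53 to 2.45 times those of Pfkm, the muscle-type subunit, in MaCon (median 1.963) and 2.15 to 2.77 times in FeCon (median 2.39). The medians were 1.52 in MaNonAD, 1.38 in MaAAD, 1.52 in FeNonAD and 1.49 in FeAAD. The mean log2 ratio differed from Con by −0.41 in MaNonAD (adjusted exact p = 0.0202), −0.43 in MaAAD (adjusted exact p = 0.00370), −0.65 in FeNonAD and −0.58 in FeAAD (both adjusted exact p = 0.000309). All 8 FeNonAD libraries were below all 10 FeCon libraries. Between NonAD and AAD the ratio differed by −0.02 in males (adjusted exact p = 0.913) and by 0.07 in females (adjusted exact p = 0.816), while Pfkm fell by 0.59 ± 0.12 in MaAAD (adjusted p = 0.000107) and by 0.35 ± 0.11 in FeAAD (adjusted p = 0.00826) against Con. Pfkl, the liver-type subunit, had −0.17 ± 0.18 and −0.02 ± 0.16 and did not pass. MaCon had a lower ratio than FeCon, by −0.32 on the log2 scale (adjusted exact p = 0.00181). The MaNonAD difference did not pass without MaNonAD1 (−0.31, adjusted exact p = 0.0850) or without MaNonAD2 (−0.38, adjusted exact p = 0.0524). The ratio of Hk2 to Hk1 passed in 0 of 9 comparisons, with adjusted exact p from 0.376 to 0.913 and 0 raw p under 0.05.

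Genes at the same steps that are not among the 10 were counted next. Of 23 listed isozymes and further steps 20 were tested, and in MaAAD against MaCon 4 rose (Hk3, Bpgm, Eno2 and Pfkfb4) and 4 fell (Pfkm, Eno3, Ldhb and Adpgk), shares close to the 18.9% and 16.1% of all genes. In FeAAD against FeCon Hk3, Aldoc, Bpgm and Pfkfb4 rose, and Pfkm, Eno3 and Ldhb fell. Hk3, a hexokinase known from myeloid cells, rose by 2.43 ± 0.35 in males (adjusted p = 4.46e-07) and by 2.38 ± 0.34 in females (adjusted p = 2.07e-07) on the log2 scale. It was a low-level gene, between 1.07 and 4.14 CPM in MaCon and 6.33 and 29.7 CPM in MaAAD, with the top values in MaAAD7 and, at 41.7 CPM, in FeAAD5, the libraries richest in macrophage markers. Pfkfb4, another maker of fructose 2,6-bisphosphate, rose by 0.94 ± 0.18 and 0.87 ± 0.17. Eno3, the muscle enolase, fell by 0.67 ± 0.13 and 0.84 ± 0.12. Bpgm, which makes 2,3-bisphosphoglycerate in red cells, rose by 0.56 ± 0.21 and 1.03 ± 0.20, and its highest value, 138 CPM, was in FeAAD2, where erythroid markers summed to 26919.9 CPM.

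The main genes of the remaining steps did not pass in AAD against Con. Gapdh, the glyceraldehyde 3-phosphate dehydrogenase, was the most abundant of these, at 1046 CPM per kb, and its log2 fold change was 0.03 ± 0.17 in males and 0.18 ± 0.16 in females. The values were 0.03 ± 0.16 and 0.29 ± 0.15 for Tpi1, 0.06 ± 0.15 and 0.25 ± 0.14 for Pgam1, and −0.18 ± 0.13 and −0.15 ± 0.12 for Gpi1. Pfkfb1, Pfkfb2, Tigar and Pgam2 did not pass in either sex. In the NonAD comparisons, Adpgk fell in males by 0.41 ± 0.10 (adjusted p = 0.0268) and Eno3 in females by 0.40 ± 0.12 (adjusted p = 0.0194), and no other of the 20 passed. Aldoc, aldolase C, rose in FeAAD by 1.17 ± 0.35 (adjusted p = 0.00547), and in MaAAD it had 0.60 ± 0.37 and did not pass (adjusted p = 0.220).

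**Figure D4:**
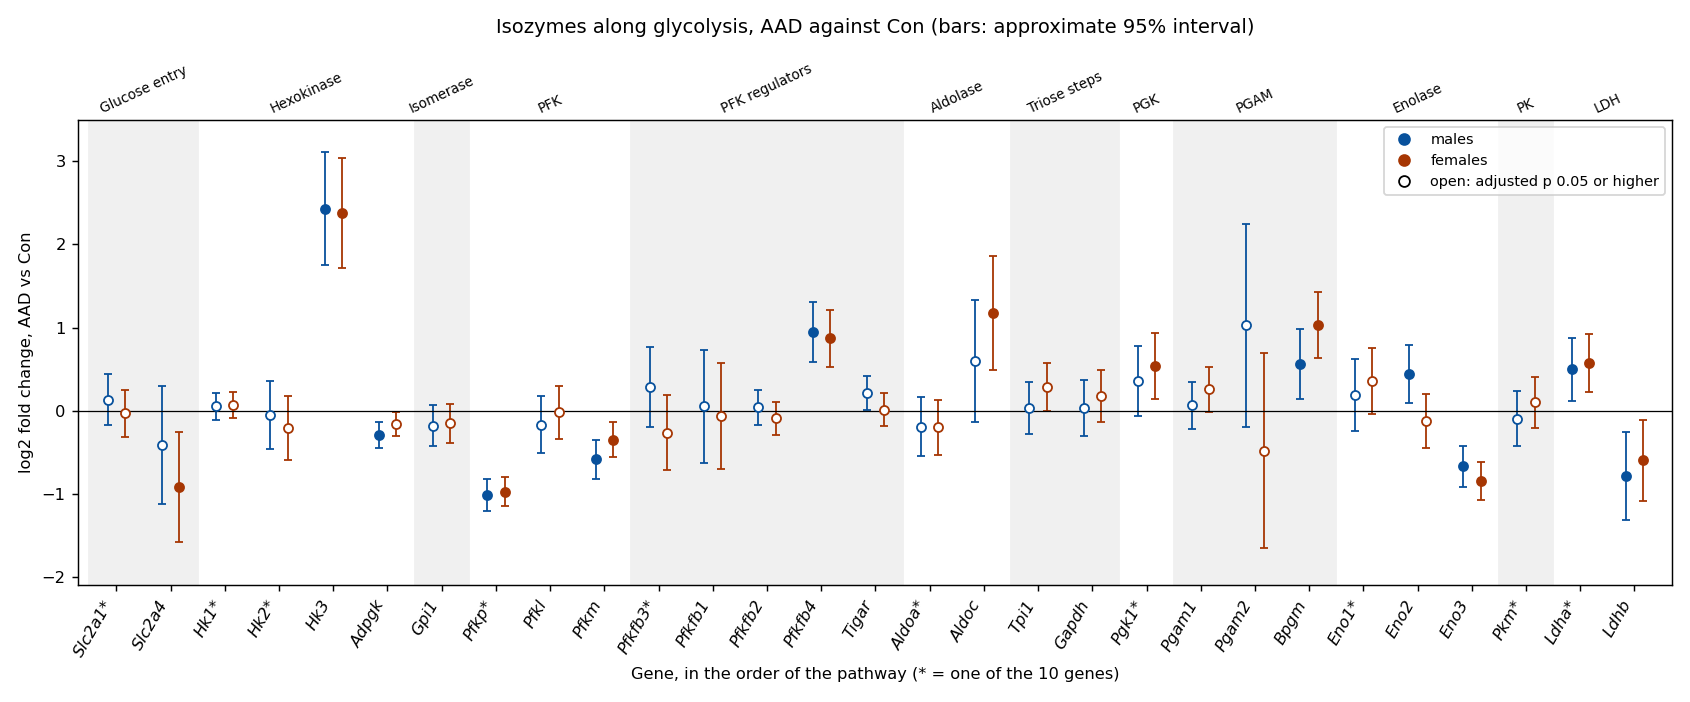
Log2 fold changes of AAD against Con (vertical axis) for isozymes in the order of glycolysis, in males and females, with approximate 95% intervals and filled points for adjusted p under 0.05. Genes that passed in both sexes are Pfkp, Pfkm, Eno3 and Ldhb, which were lower, and Hk3, Pfkfb4, Bpgm and Ldha, which were higher.

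Neighbouring pathways were described with the same test, and their counts stand beside 18.9% of all genes higher and 16.1% lower in MaAAD against MaCon, and 23.8% and 20.6% in FeAAD against FeCon. Of 9 other glucose transporters, Slc2a6 rose by 2.93 ± 0.44 in MaAAD and 2.68 ± 0.41 in FeAAD against Con, from group means of 0.36 and 0.45 CPM, and Slc2a9, a urate carrier of this family, rose by 1.26 ± 0.24 and 0.93 ± 0.22. Slc2a4, the insulin-responsive GLUT4 of muscle and fat, fell in FeAAD by 0.92 ± 0.34 (adjusted p = 0.0230). Of 5 genes of lactate transport, Slc16a3, the exporter MCT4, rose in MaAAD by 0.99 ± 0.28 (adjusted p = 0.00489) and had 0.46 ± 0.26 in FeAAD (adjusted p = 0.156). Slc16a7 fell by 0.41 ± 0.15 and 0.38 ± 0.14, and Emb, a transporter chaperone, fell in MaAAD by 0.59 ± 0.18. Of 13 genes of pyruvate entry into mitochondria none rose in AAD against Con. Pdp2, a pyruvate dehydrogenase phosphatase, fell by 0.89 ± 0.18 and 0.80 ± 0.16 in the male and female comparisons. Pdk4, the kinase that shuts the same complex, fell in MaAAD by 1.61 ± 0.40 (adjusted p = 0.00113), and Pdk3 fell in FeAAD by 0.29 ± 0.10.

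Of 8 genes of the pentose phosphate pathway, 2 rose in MaAAD (H6pd and Pgd) and 3 in FeAAD (Pgd, Rpia and Rpe), and none fell, beside 18.9% and 23.8% of all genes higher. Pgd, which makes NADPH, rose by 0.66 ± 0.19 in males and 0.54 ± 0.17 in females. H6pd rose by 0.62 ± 0.12 in MaAAD and Rpia by 0.42 ± 0.12 in FeAAD. Rpia and Rpe also rose in FeNonAD against FeCon, by 0.50 ± 0.12 and 0.44 ± 0.12. Of 10 genes of glycogen metabolism, Pgm2 rose by 0.84 ± 0.13 and 0.59 ± 0.12, while Pygm, muscle glycogen phosphorylase, fell by 1.20 ± 0.17 and 0.70 ± 0.16. Pygb also fell in both sexes, and Gbe1, at 0.82 ± 0.24, and Ugp2 fell in females. Of 6 tested genes of gluconeogenesis 0 passed in MaAAD against MaCon in edgeR (1 at an unadjusted p under 0.05), and 1, G6pc, fell in FeNonAD and in FeAAD. G6pc lay near the floor, with a mean of 7.25 counts per library and a range of 0 to 86.

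Of 9 regulators, Hif1a, the oxygen-sensitive subunit of hypoxia-inducible factor, rose by 0.635 ± 0.19 in MaAAD (adjusted p = 0.00753) and 0.65 ± 0.18 in FeAAD (adjusted p = 0.00270). Myc rose by 1.34 ± 0.30 (adjusted p = 0.000376) and 0.94 ± 0.28 (adjusted p = 0.00554). Egln1, an oxygen sensor that marks HIF for destruction, fell in both sexes, and Epas1, Egln2 and Egln3 fell in FeAAD, with −0.65 ± 0.15 for Epas1. Among the regulators in NonAD against Con, 0 of 9 passed in males in edgeR (0 at an unadjusted p under 0.05) and Egln2 alone in females, where it fell. The highest Hif1a value, 378 CPM, was in FeAAD5, and the highest MaAAD value, 204 CPM, was in MaAAD7.

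Within groups, the genes of the lower pathway varied together. After group means were subtracted from log2(CPM + 1), the 10 pairs among Aldoa, Eno1, Pgk1, Pkm and Ldha had r from 0.70 to 0.95 with a median of 0.83, beside a median of 0.28 over all 45 pairs of the 10 genes. Eno1 and Ldha were each other's most similar gene of 13710 (r = 0.95, rho = 0.94), and Aldoa was most like Eno1 (r = 0.94, rho = 0.95). Pkm was most like Gapdh (r = 0.95, rho = 0.94) and Pgk1 most like Pgam1 (r = 0.90, rho = 0.88). Hk2 was most like Pfkfb3 (r = 0.81, rho = 0.77). Pfkfb3 in turn was closest to Aifm2 (r = 0.84) and Lpin1 (r = 0.84), Slc2a1 to H13 (r = 0.80) and Slc16a3 (r = 0.80), and Hk1 to Dctn1 (r = 0.80) and Aebp1 (r = 0.79). These correlations describe 48 libraries that share the tissue and the sequencing platform.

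**Figure D5:**
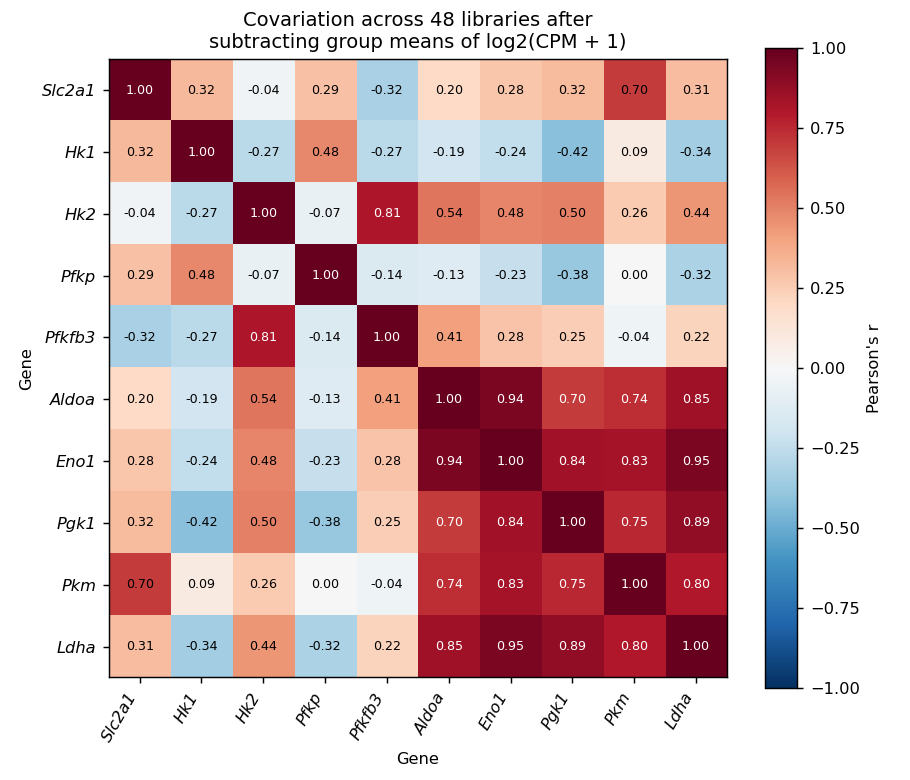
Pearson's r between the 10 genes (both axes) across 48 libraries after subtracting group means of log2(CPM + 1), from −1 in blue to 1 in red. Aldoa, Eno1, Pgk1, Pkm and Ldha form a block with r of at least 0.70, Hk2 and Pfkfb3 pair at 0.81, and Pfkp and Hk1 stand apart.

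The same libraries were therefore high for many of the genes. MaNonAD2 had the highest value of its group for 8 of the 10 genes, and MaNonAD4 the lowest for 7. MaAAD1 was highest in MaAAD for 5 (Hk2, Pfkfb3, Aldoa, Eno1 and Ldha) and MaAAD7 for 3 (Slc2a1, Pgk1 and Pkm). FeAAD5 led FeAAD for 4 (Eno1, Pgk1, Pkm and Ldha). Brown fat markers, none of which passed in any of the 6 comparisons within a sex, ranged from 238 to 2038 CPM in MaCon, from 720.2 to 2287 in MaNonAD, from 41.1 to 2633 in MaAAD and from 127 to 1405 in FeAAD. With group means subtracted, their sum had r = 0.74 with Pfkfb3 (rho = 0.72, and 0.78 without MaAAD1 and MaAAD3) and r = 0.66 with Hk2 (rho = 0.64, and 0.63 without them). It had r = 0.54 with Aldoa, 0.41 with Eno1, −0.52 with Slc2a1 and −0.13 with Pfkp. The summed white fat markers had r = 0.63 with Pfkfb3, 0.53 with Aldoa and 0.48 with Eno1. The part of fat left on the vessel in the spread of these genes was not tested.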

How the data were processed

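The deposited table holds expected counts per gene, 1 column per mouse, from saline-perfused, snap-frozen thoracic aorta. The authors made strand-specific mRNA libraries and sequenced them as DNA nanoballs, and the submitters' processing notes name Bowtie2, RSEM 1.3.1 and GRCm39. Expected counts were deposited without scaling, 4.99% of the values were not whole, and all were rounded here. Groups came from the sample labels. The 10 genes and all lists were chosen with earlier results of these data known.

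Counts of 14431 genes kept by filterByExpr were tested with edgeR 4.0.16 (R 4.3.3), using TMM factors (0.874 to 1.08), the robust quasi-likelihood test and a mean per group over all 48 libraries. Adjusted p are Benjamini-Hochberg values over all genes tested, and a gene passed under 0.05. DEGs also changed by 1 or more on the log2 scale. Standard errors come from the fold change and the F statistic, and 95% intervals from them. CPM are TMM-scaled. Isozyme ratios used counts plus 0.5 and exact permutation tests, 27 in all. Alternatives were DESeq2 1.42.0, its size factors, no filter on low counts, only the compared groups, a block for replicate numbers, no robust estimation, and each of the 48 libraries left out, 42 of these chosen after seeing the data. Scripts were tested on simulated data. Other Python 3.11.15 steps used numpy 2.4.6, pandas 2.3.3 and matplotlib 3.10.9.

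Named pathway genes were isozymes averaging at least 10 counts and, per list, up to 3 genes with the largest change among those passing in AAD against Con. Rpe, Pygb, Ugp2, G6pc, Egln1, Egln2 and Egln3 fall outside this rule and were named after their values were seen. Some genes of the lists are not reported here. The genes most like each of the 10 were ranked by Pearson's r of log2(CPM + 1) with group means subtracted. Lengths are from GENCODE M21 (GRCm38), another build than that of the counts, so no gene coordinates beyond the promoter windows are given. Libraries held 13548000 to 17281273 counts, and spread between mice was not compared with counting error. Columns of other samples numbered 0, and no libraries were identical.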

Additional observations from a re-analysis of the deposited data

Results flagged for a closer look

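In each group the highest and the lowest library were compared with the rest for the 10 genes and the 3 isozyme ratios, 78 checks in all, of which chance alone flags about 5%. In 4 of them 1 library lay far from the others. Pfkp in MaNonAD1 was the lowest of its group at 119 CPM, with the other 3 mice at 168 to 179 CPM. Pfkfb3 in MaNonAD2 was the highest of its group at 214.5 CPM, with the others at 134 to 142 CPM. Aldoa in MaAAD1 was the highest of its group at 1596 CPM. The log2 ratio of Ldha to Ldhb in FeNonAD8 was the highest of its group at 2.14, and the next FeNonAD library was at 1.299. No difference between the sexes in a response passed for the 10 genes.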

How the results depend on the processing

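With the replicate number as a block, the count of the 10 genes called was 0 in MaNonAD against MaCon (Pfkp −0.51, adjusted p = 0.0620), 1 in MaAAD against MaCon (Ldha 0.47, adjusted p = 0.0651) and 1 in MaCon against FeCon (Pfkfb3 −0.66, adjusted p = 0.0466). Pgk1 in FeAAD against FeCon became 0.42 (adjusted p = 0.0805). The numbers do not pair the mice, since no comparison had every same-numbered pair correlated above 0.1, and the mean correlation ran from −0.07 to 0.16. With the fold threshold of DEGs the count was 0 in MaNonAD against MaCon, 1 in MaAAD against MaCon, and 0 in FeNonAD against FeCon, FeAAD against FeCon and FeAAD against FeNonAD. MaAAD against MaNonAD gave 1 with DESeq2, with its size factors and without robust estimation. Leaving out 1 library gave counts of 0 to 1 in MaNonAD against MaCon, 1 to 2 in MaAAD against MaCon, 0 to 2 in MaAAD against MaNonAD, 1 to 3 in FeAAD against FeCon, 1 to 2 in FeAAD against FeNonAD and 0 to 1 in MaCon against FeCon. In MaAAD against MaNonAD, Pfkp passed without any 1 of MaNonAD1, MaAAD1, MaAAD2, MaAAD4, FeNonAD8, FeAAD3, FeAAD4, FeAAD5, FeAAD8 or FeAAD9 (−0.58 to −0.42). In FeAAD against FeNonAD, Ldha passed without MaAAD1, FeAAD1 or FeAAD3 (0.490 to 0.548) and was lowest without FeAAD5 (0.284, adjusted p = 0.337). The ratio of Ldha to Ldhb ranged over 0.357 to 0.552 in MaNonAD against MaCon, 0.777 to 1.08 in MaAAD against MaNonAD, 0.783 to 1.14 in FeAAD against FeNonAD and −0.192 to −0.123 in MaCon against FeCon, where it passed without MaCon3. That of Pfkp to Pfkm ranged over −0.473 to −0.314 in MaNonAD against MaCon. The cause of these changes was not tested. A pseudocount of 1 or the share of the pair changed 0 of 54 ratio calls, and no called value changed sign. The number of single libraries whose removal changed the count was 1 in MaNonAD against MaCon, 7 in MaAAD against MaCon and 10 in MaAAD against MaNonAD. In females it was 1 in FeAAD against FeCon and 3 in FeAAD against FeNonAD. The MaNonAD group had 4 mice.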
